A study of Mus musculus with 20 samples.

Results

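The 8 genes described here encode subunits of the Kv1 and Kv3 voltage-gated potassium channels. They were chosen by name, with earlier results of these data known. They are the Kv1 alpha subunit genes Kcna1, Kcna2 and Kcna6, the beta subunit genes Kcnab1 and Kcnab2 that partner Kv1 channels, and the Kv3 alpha subunit genes Kcnc1, Kcnc2 and Kcnc4, out of 21897 protein-coding genes in the count table. Each was found in the table by its Ensembl identifier, and all 8 had enough reads to be tested in every comparison. The cerebella of 20 C57BL/6J mice had been sequenced, 1 per library. The 6 mice labelled 9 weeks were all WT, of which 3 had received AAV-shA4 and 3 were untreated. The 14 labelled 25 weeks were 10 SCA7 mice, 5 injected with AAV-shA4 and 5 with AAV-shSCR, and 4 WT animals left untreated. SCA7 mice carried the 140Q/5Q genotype, that is, an Atxn7 allele with an expanded CAG repeat beside an allele of normal length. AAV-shA4 was an AAV PHP.eB vector with an shRNA directed at CAG repeats and an eGFP cassette, AAV-shSCR was the same vector with a scrambled shRNA, and untreated mice received saline according to the methods. The vector was injected into the bloodstream of young mice, and by eGFP it reached most Purkinje cells (PCs) and few granule neurons. No untreated SCA7 mice and no WT mice given AAV-shSCR entered these libraries, so genotype and vector cannot be told apart in a comparison of SCA7 with untreated WT mice.

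Potassium channels of the Kv1 family open at small depolarizations, sit at the axon initial segment, beside the nodes of Ranvier and in presynaptic terminals, and set how readily an axon fires. Their alpha subunits assemble as tetramers of mixed composition, and cytoplasmic Kv beta subunits bind them and alter their inactivation and trafficking. Kv3 channels open only at strong depolarization and close fast, which lets PCs and cerebellar interneurons fire at high rates. Mutations of KCNA1 cause an episodic ataxia in humans, and mutations of KCNC1 cause a myoclonic epilepsy with ataxia.

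On GRCm38, with the GENCODE M21 annotation, Kcna1 (ENSMUSG00000047976) lies at chr6:126640397-126646384 and Kcna6 (ENSMUSG00000038077) at chr6:126708329-126740674, both on the minus strand. Kcna2 (ENSMUSG00000040724) lies at chr3:107101146-107115005 on the plus strand. Kcnab1 (ENSMUSG00000027827) lies at chr3:65109384-65378223 on the plus strand and Kcnab2 (ENSMUSG00000028931) at chr4:152390742-152477871 on the minus strand. Kcnc1 (ENSMUSG00000058975) lies at chr7:46396497-46438704 and Kcnc2 (ENSMUSG00000035681) at chr10:112271121-112467024, both on the plus strand, and Kcnc4 (ENSMUSG00000027895) at chr3:107438303-107459552 on the minus strand.

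The libraries held between 31465600 and 54570500 counts on genes. At 9 weeks the depth of the 2 groups did not overlap, with 36245800 to 39208300 counts after AAV-shA4 and 47455900 to 49212600 in untreated mice. Levels are given in CPM, counts scaled by TMM to a common library size, and the spread as the SD between mice. Atxn7, the targeted gene, was tested first. In AAV-shSCR-treated SCA7 mice it lay at 49.4 ± 2.90 CPM (SD, n = 5), in AAV-shA4-treated SCA7 mice at 48.1 ± 2.70 CPM (SD, n = 5) and in untreated WT mice of 25 weeks at 48.5 ± 1.97 CPM (SD, n = 4). The difference in Atxn7 between the 2 SCA7 groups was -0.04 on the log2 scale (SE 0.05, adjusted p = 0.842). The counts do not separate the mutant from the normal allele.

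The 8 genes differed widely in level. Reads grow with transcript length, so levels were compared between genes per kilobase, with the median transcript length of each gene that the methods use. In untreated WT mice of 25 weeks Kcnab2 lay at 343 ± 37.2 CPM per kilobase (SD, n = 4) and Kcnc1 at 277 ± 17.4. Kcna2 followed at 121 ± 6.22, Kcnab1 at 82.5 ± 1.32 and Kcna1 at 48.0 ± 0.836. Kcna6 at 26.4 ± 0.363, Kcnc4 at 23.2 ± 1.63 and Kcnc2 at 2.98 ± 3.04 CPM per kilobase were lowest. The ranges over mice of neighbours in this order did not overlap.

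The place of Kcnab2 depended on the length used, since its median annotated transcript has 0.601 kilobases and its longest 3.922. With the longest transcript of each gene, an alternative chosen after seeing the data, Kcnc1 led at 113 ± 7.06 CPM per kilobase and Kcnab2 followed at 52.5 ± 5.70. Kcna2 at 45.5 ± 2.35 and Kcnab1 at 45.3 ± 0.727 CPM per kilobase could then not be told apart by their ranges, and Kcnc4 stood above Kcna6 at 21.0 ± 0.289. Kcnc1, which encodes the Kv3.1 subunit, was highest among the alpha subunit genes described, and Kcnc2, which encodes Kv3.2, lowest, with either length.

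**Figure D1:**
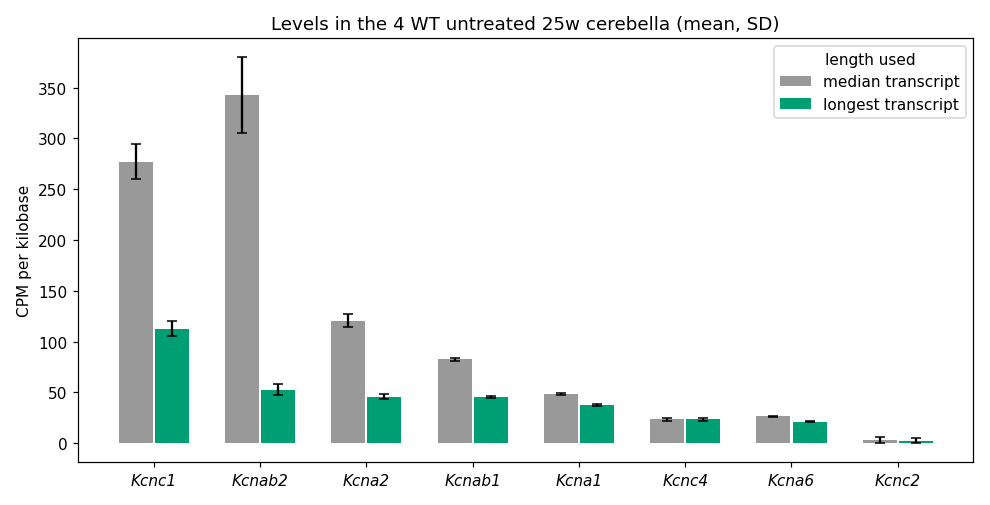
Mean level per kilobase (y axis, CPM per kilobase) of the 8 genes (x axis) in the 4 untreated WT cerebella of 25 weeks, with error bars for the SD, for the median and the longest annotated transcript as length. Kcnc1 falls from 277 to 113 and Kcnab2 from 343 to 52.5 CPM per kilobase with the longer length, and Kcnc2 is lowest with both.

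The promoters of 4 members are shown because each has 1 promoter window in the RefSeq table used here and each fell in at least 1 comparison below. These windows run from 250 bases before to 50 bases after the annotated start on GRCm38.p6. They lie at chr6:126740625-126740924 on the minus strand for Kcna6, chr3:107101317-107101616 on the plus strand for Kcna2, chr7:46396218-46396517 on the plus strand for Kcnc1 and chr3:107458849-107459148 on the minus strand for Kcnc4. The windows of Kcna2 and Kcnc4 lie wholly inside the GENCODE M21 genes given above. Their RefSeq starts are thus downstream of the 5′ end of the GENCODE gene, and these windows do not cover that end. Capitals mark the GC box, GGGCGG or its reverse complement.
Kcna6: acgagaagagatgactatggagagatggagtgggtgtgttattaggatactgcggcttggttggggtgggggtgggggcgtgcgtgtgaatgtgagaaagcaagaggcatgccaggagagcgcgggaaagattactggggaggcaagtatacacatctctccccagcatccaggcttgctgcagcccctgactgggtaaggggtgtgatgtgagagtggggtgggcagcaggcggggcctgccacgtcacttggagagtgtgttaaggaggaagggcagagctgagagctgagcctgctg
Kcna2: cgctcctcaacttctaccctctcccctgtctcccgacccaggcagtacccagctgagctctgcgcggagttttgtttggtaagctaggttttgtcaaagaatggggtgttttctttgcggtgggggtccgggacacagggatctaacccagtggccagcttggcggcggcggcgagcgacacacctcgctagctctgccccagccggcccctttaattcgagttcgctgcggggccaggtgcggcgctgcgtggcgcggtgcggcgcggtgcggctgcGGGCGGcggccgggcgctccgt
Kcnc1: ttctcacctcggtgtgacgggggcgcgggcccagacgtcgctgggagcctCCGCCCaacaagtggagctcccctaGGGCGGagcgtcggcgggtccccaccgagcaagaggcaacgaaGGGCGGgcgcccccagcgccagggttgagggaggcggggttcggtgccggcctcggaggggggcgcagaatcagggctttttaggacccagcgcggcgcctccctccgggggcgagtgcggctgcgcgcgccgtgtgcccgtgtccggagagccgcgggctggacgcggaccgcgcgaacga
Kcnc4: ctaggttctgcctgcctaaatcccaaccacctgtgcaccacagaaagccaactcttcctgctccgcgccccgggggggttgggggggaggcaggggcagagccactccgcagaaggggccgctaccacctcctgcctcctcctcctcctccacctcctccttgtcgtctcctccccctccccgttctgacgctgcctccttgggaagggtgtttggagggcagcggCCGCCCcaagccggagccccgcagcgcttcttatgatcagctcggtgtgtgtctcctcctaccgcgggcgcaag
Kcnc1 had the GC-richest window, with 74.7% G or C, against 66.7% for Kcna2 and Kcnc4, 58.3% for Kcna6 and a median of 52.7% over all 32851 windows in the table. The GC box occurred 3 times for Kcnc1, 1 time each for Kcna2 and Kcnc4 and 0 times for Kcna6, and 35.7% of all windows hold it. The letters TGACG, on either strand, occurred 1 time each for Kcna6, Kcnc1 and Kcnc4 and 0 times for Kcna2, and 20.8% of all windows hold them. The TATA box letters TATAAA, found in 13.6% of all windows, the CCAAT box, found in 37.4%, and the E-box letters CACGTG, found in 7.15%, were not in these 4 windows on either strand. No one of these motifs contains another. Of the other members, 3 had more than 1 window, and Kcna1 had none in the table.

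The first question was how these channel genes stood in SCA7 mice that received the control vector. In AAV-shSCR-treated SCA7 mice against untreated WT mice of 25 weeks, 5 of the 8 genes fell and none rose, at an adjusted p under 0.05 over 14862 genes. Those genes were Kcna6, Kcnab1, Kcnab2, Kcnc1 and Kcnc4, so that both beta subunits, 2 of 3 Kv3 alpha subunits and 1 of 3 Kv1 alpha subunits passed. Of all genes tested, 8.65% were called lower, a share given for description, since the 8 genes were chosen with earlier results known. The groups did not overlap for the same 5 genes, against 9.62% of all genes that lay lower without overlap. The median log2 fold change of the 8 genes was -0.31, beside 0.00 for all genes.

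Among the Kv1 alpha subunits, Kcna6 was the 1 that fell. Kcna6, which encodes Kv1.6, measured 123, 124, 124 and 120 CPM in the WT mice against 87.2, 86.1, 90.6, 83.6 and 90.8 CPM in the SCA7 mice injected with AAV-shSCR. Every SCA7 mouse thus lay below every WT mouse. The gene fell by 0.48 on the log2 scale (SE 0.03, adjusted p = 2.23e-08), a level 28.3% lower. Kcna1 encodes Kv1.1, the subunit of episodic ataxia, and measured 151, 151, 155 and 148 CPM in WT mice against 148, 142, 150, 150 and 150 CPM in SCA7 mice. The groups overlapped, and the difference of -0.03 on the log2 scale had a 95% interval from -0.09 to 0.04 (adjusted p = 0.602). Kcna2, which encodes Kv1.2, measured 558, 541, 515 and 496 CPM in WT mice against 501, 473, 506, 531 and 487 CPM in SCA7 mice. These groups also overlapped, with a difference of -0.08 (95% interval -0.16 to 0.01, adjusted p = 0.233).

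Kcna1 and Kcna6 lie close to each other on chromosome 6, and their ratio within a library does not depend on sequencing depth. The ratio of Kcna6 to Kcna1 counts was 0.812 ± 0.00960 (SD, n = 4) in WT mice of 25 weeks and 0.593 ± 0.0210 (SD, n = 5) in AAV-shSCR-treated SCA7 mice. It ran from 0.799 to 0.820 in the former and from 0.557 to 0.607 in the latter, without overlap. An antisense gene, Gm26673, shares 2355 exonic bases with Kcna6, and held 24 to 231 counts per library against 2888 to 6564 for Kcna6. Whether counting used the strand is not given in the sources used here, so reads of Kcna6 and this antisense gene may not be cleanly separated.

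Both Kv beta genes fell. Kcnab1, which encodes Kv beta 1, measured 194, 202, 201 and 198 CPM in WT mice against 163.5, 164.1, 161, 163.7 and 163.2 CPM after AAV-shSCR. The 5 SCA7 mice lay close to each other and below every WT mouse. The log2 fold change was -0.28 (SE 0.02, adjusted p = 3.22e-07). Kcnab2, which encodes Kv beta 2, measured 239, 192, 197 and 195 CPM in WT mice against 178, 159, 175, 151 and 167.9 CPM in SCA7 mice. WT mouse 1 stood apart at the high end, and the groups did not overlap with or without it. The gene fell by 0.31 (SE 0.06, adjusted p = 0.00209), and by 0.23 without the 2 libraries described below (adjusted p = 0.00263). The opposite-strand gene Nphp4 spans the same locus without sharing exonic bases, and held 454 to 1077 counts against 5213 to 12765 for Kcnab2.

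Kcnc1 and Kcnc4 fell among the Kv3 genes. Kcnc1 measured 811, 937, 897 and 852 CPM in WT mice and 708, 697, 681, 739 and 717 CPM in SCA7 mice. The highest SCA7 mouse stayed below the lowest WT mouse, and the log2 fold change was -0.30 (SE 0.04, adjusted p = 0.000107). Kcnc4, which encodes the fast-inactivating Kv3.4, measured 92.7, 86.6, 79.0 and 81.9 CPM in WT mice and 69.7, 63.1, 67.3, 61.5 and 63.8 CPM in SCA7 mice. These groups did not overlap either, and the log2 fold change was -0.38 (SE 0.05, adjusted p = 7.99e-05). The ratio of Kcnc4 to Kcnc1 counts was 0.0977 ± 0.0115 (SD, n = 4) in WT and 0.0920 ± 0.00661 (SD, n = 5) in SCA7 mice, and these ranges overlapped. At a fold change above 1.3, the limit used by the study, 2 of the 5 genes were left, Kcna6 and Kcnc4, beside 2.66% of all genes.

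**Figure D2:**
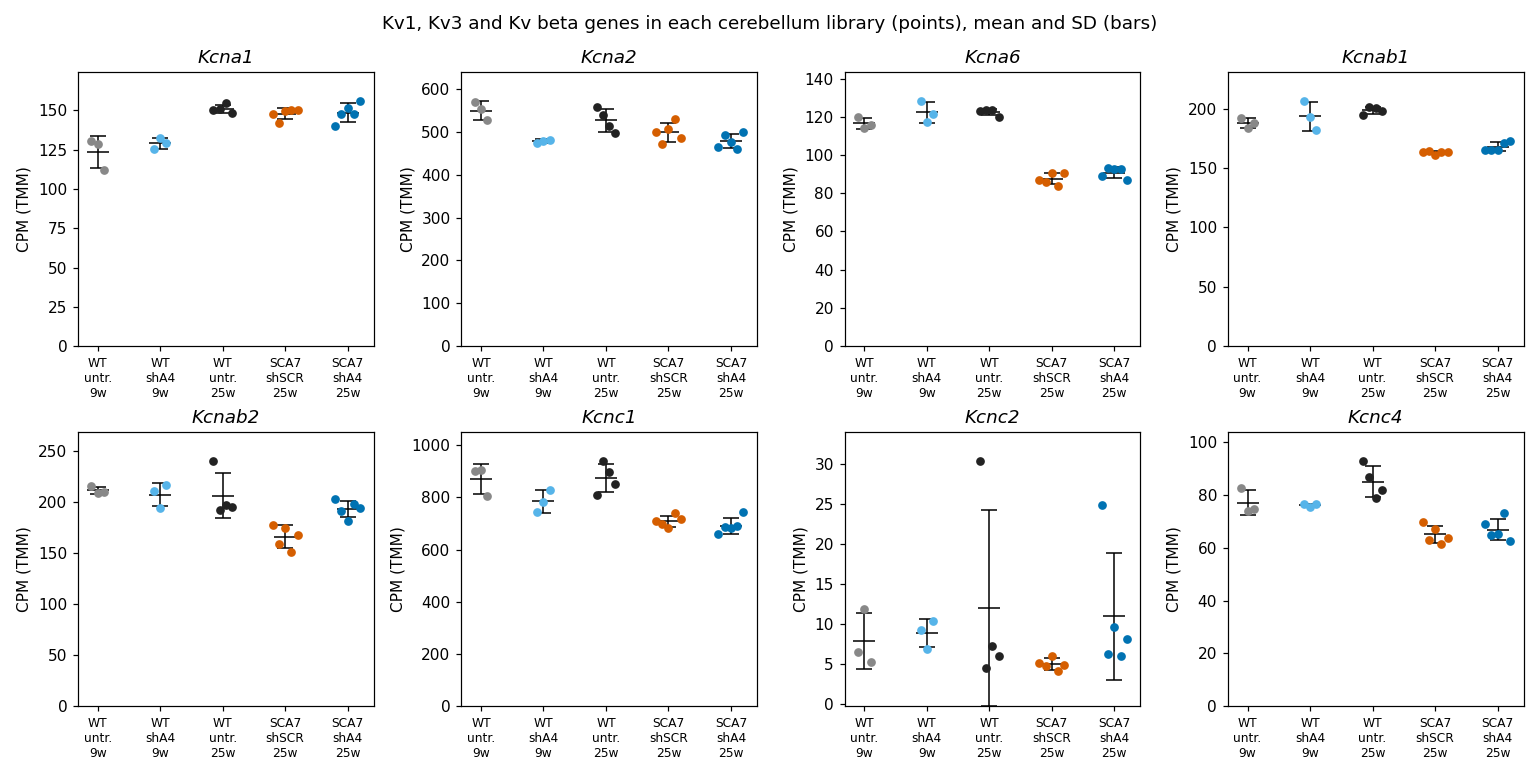
CPM (y axis) of the 8 genes in each of the 20 libraries, grouped by condition (x axis), with points for mice and bars for the mean and SD. Kcna6, Kcnab1, Kcnc1 and Kcnc4 lie lower in both SCA7 groups than in WT mice of 25 weeks without overlap, Kcna1 overlaps, and 2 libraries stand high for Kcnc2 at 30.3 and 24.8 CPM.

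The same genes were then compared between AAV-shA4-treated SCA7 mice and the untreated WT mice. These WT mice are those of the previous comparison, so the 2 sets of differences share their controls. Again 5 of 8 genes fell and none rose, Kcna2, Kcna6, Kcnab1, Kcnc1 and Kcnc4, beside 8.11% of all genes called lower. For 4 of them, Kcna2 being the exception, the groups did not overlap, against 8.13% of all genes. The median log2 fold change of the 8 genes was -0.19, beside 0.01 for all genes.

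Kcna6 measured 89.0, 93.1, 92.7, 92.6 and 86.7 CPM in AAV-shA4-treated mice, all below the WT mice, and fell by 0.43 on the log2 scale (SE 0.03, adjusted p = 7.70e-08). It was the 1 member past the 1.3-fold limit, which 2.27% of all genes passed in the lower direction. The ratio of Kcna6 to Kcna1 counts was 0.612 ± 0.0324 (SD, n = 5). Kcnab1 measured 164.9, 165.5, 165.6, 170.9 and 173.1 CPM, with a log2 fold change of -0.24 (SE 0.02, adjusted p = 2.26e-06). Neither gene overlapped with the WT mice.

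Kcnc1 measured 661, 685, 681, 690.4 and 743 CPM after AAV-shA4 and fell by 0.34 (SE 0.04, adjusted p = 3.64e-05). Kcnc4 measured 68.9, 64.8, 65.2, 73.0 and 62.5 CPM and fell by 0.35 (SE 0.05, adjusted p = 0.000248). For both Kv3 genes every treated mouse lay below every WT mouse. Kcna1 measured 140, 148, 152, 147 and 156 CPM, with a difference of -0.02 (95% interval -0.09 to 0.04, adjusted p = 0.706).

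Kcna2 measured 466, 492, 476, 459 and 499 CPM after AAV-shA4, and its highest value overlapped the lowest WT value of 496. It fell by 0.14 (SE 0.04, adjusted p = 0.0317), and this call was lost in 5 of 9 fits that left out 1 mouse, where adjusted p ran from 0.0175 to 0.0969. Without WT mouse 1 the log2 fold change was -0.11 (adjusted p = 0.0969). Kcnab2 measured 202, 191, 181.4, 198 and 194 CPM and overlapped with WT mice. Its difference from WT was -0.09 (95% interval -0.22 to 0.04, adjusted p = 0.367).

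Whether the 2 SCA7 groups differ was tested directly. Between AAV-shA4 and AAV-shSCR, 0 of 8 genes were called by edgeR, beside 0% of 14862 genes. DESeq2 also called 0 members, and 24 genes of all. Without adjustment, Kcnab2 and Kcnc2 had a p under 0.05, as did 8.22% of all genes. For Kcnab2 all 5 mice given AAV-shA4, at 181.4 to 202 CPM, lay above all 5 given AAV-shSCR, at 151 to 178 CPM. The difference was 0.22 on the log2 scale (SE 0.06, 95% interval 0.10 to 0.34), with an unadjusted p of 0.00151 and an adjusted p of 0.423. The summed markers of cerebellar nuclei and brainstem projection neurons also lay higher without overlap. Their sum was 584 to 663 CPM after AAV-shA4 against 461 to 539 CPM after AAV-shSCR. The mean of log2(CPM + 0.1) over the markers, in which each counts equally, overlapped between the groups. It ran from 0.0952 to 0.687 after AAV-shA4 and from -0.0120 to 0.416 after AAV-shSCR. Of these 19 markers 9 were tested, none was called between the SCA7 groups, the median log2 difference was 0.25 beside 0.00 for all genes, and no marker was at 0 in every library. Their part in the differences of Kcnab2 and Kcnc2 was not tested. Kcnab1 lay higher without overlap as well, at 164.9 to 173.1 against 161 to 164.1 CPM, with a difference of 0.04 (95% interval -0.01 to 0.09, adjusted p = 0.640). Of all genes, 0.774% lay higher without overlap.

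The remaining intervals bound what the vector with shA4 could have changed against the control vector at this depth. For Kcna6 the difference was 0.05 (95% interval -0.01 to 0.11), for Kcnc1 -0.03 (-0.12 to 0.05) and for Kcnc4 0.04 (-0.07 to 0.14). For Kcna1 it was 0.01 (-0.06 to 0.07) and for Kcna2 -0.06 (-0.14 to 0.02). The adjusted p of these 5 genes ran from 0.675 to 0.973. For Kcnab2, a call with AAV-shSCR and none with AAV-shA4 is not by itself a difference between the SCA7 groups. Its direct difference, given above, had a 95% interval from 0.10 to 0.34 before adjustment and an adjusted p of 0.423 by edgeR.

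**Figure D3:**
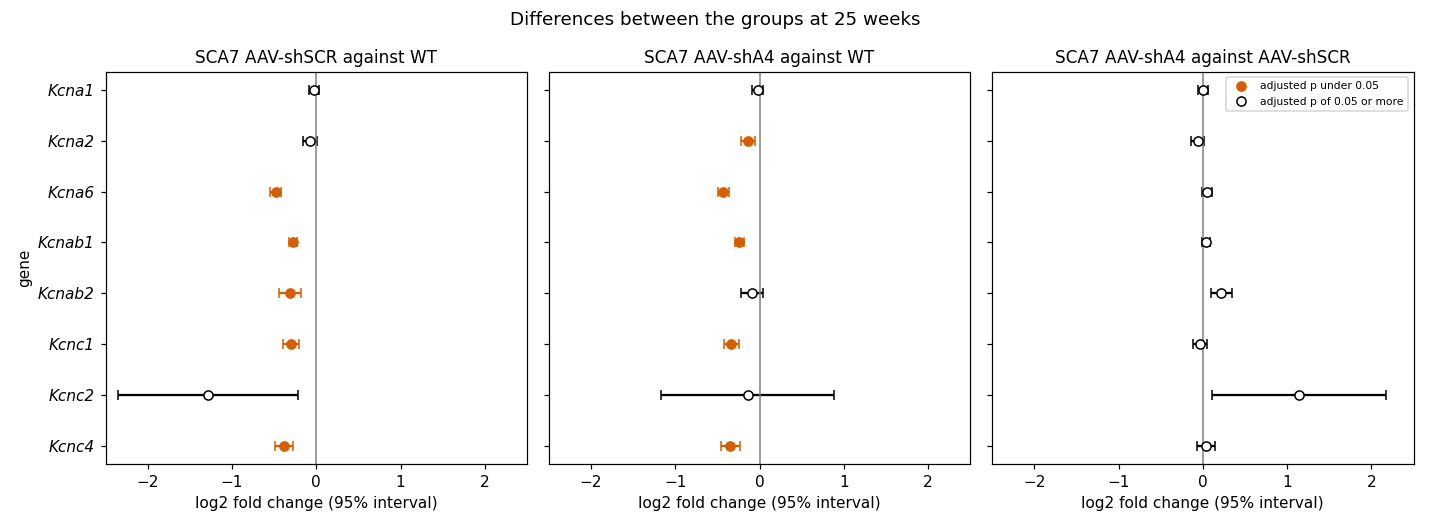
Log2 fold changes with their 95% intervals (x axis) of the 8 genes (y axis) in the 3 comparisons at 25 weeks, with filled points for an adjusted p under 0.05. Filled points lie below 0 for 5 genes in each comparison with WT mice, none are filled between the SCA7 groups, and the interval of Kcnc2 is the widest in each panel.

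Kcnc2 could not be described by its group means, because 2 libraries stood apart. Kcnc2 measured 30.3 CPM in WT mouse 1 and 24.8 CPM in AAV-shA4-treated SCA7 mouse 1, against 4.06 to 9.59 CPM in the other 12 libraries of 25 weeks. The other WT mice measured 4.46, 7.26 and 5.96 CPM, and the 5 AAV-shSCR-treated mice 4.06 to 6.03 CPM. The log2 fold change of AAV-shSCR against WT was -1.28 (SE 0.51, adjusted p = 0.0999), and without the 2 libraries -0.24 (adjusted p = 0.414). For AAV-shA4 against WT it was -0.14 (SE 0.49, adjusted p = 0.894), and 0.34 without them (adjusted p = 0.245). Between the SCA7 groups it was 1.14 (SE 0.49, adjusted p = 0.577), and 0.59 without them (adjusted p = 0.391). Leaving them out was chosen after seeing the data.

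The genes most like Kcnc2 over the 14 libraries were Slc17a6, the vesicular glutamate transporter VGLUT2, with Pearson r = 0.989, and the transcription factor gene Meis2, with r = 0.986. Both are on the list of markers of cerebellar nuclei and brainstem projection neurons used here. Slc17a6 measured 80.3 and 74.5 CPM in the 2 libraries against 14.4 to 31.1 CPM in the other 12, and Meis2 32.4 and 27.4 CPM against 3.77 to 7.86 CPM. Of the 19 genes on that list, 6 in WT mouse 1 and 4 in the AAV-shA4-treated mouse lay above all other 12 libraries, and the summed level was 800 and 659 CPM against 461 to 663 CPM. WT mouse 1 also held 239 CPM of Kcnab2 and 92.7 CPM of Kcnc4, where the other 12 libraries reached 198 and 86.6 CPM. AAV-shA4-treated mouse 1 held 202 CPM of Kcnab2, also above these 12 libraries, and 68.9 CPM of Kcnc4. In WT mouse 1, 7 of 14 oligodendrocyte and 7 of 16 interneuron and Golgi cell markers also lay above all other 12 libraries. So did 4 of 12 Bergmann glia and astrocyte markers, 1 of 18 PC markers and 0 of 14 granule cell markers. In AAV-shA4-treated mouse 1 the counts for these lists, in this order, were 0, 2, 0, 1 and 1. The part of any of these marker lists in the levels of Kcnc2, Kcnab2 and Kcnc4 was not tested. All 5 calls of AAV-shSCR-treated SCA7 mice against untreated WT mice held without the 2 libraries. Kcnc4 then stood at -0.34 (adjusted p = 0.000278), Kcnab1 at -0.29, Kcnc1 at -0.33 and Kcna6 at -0.48.

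**Figure D4:**
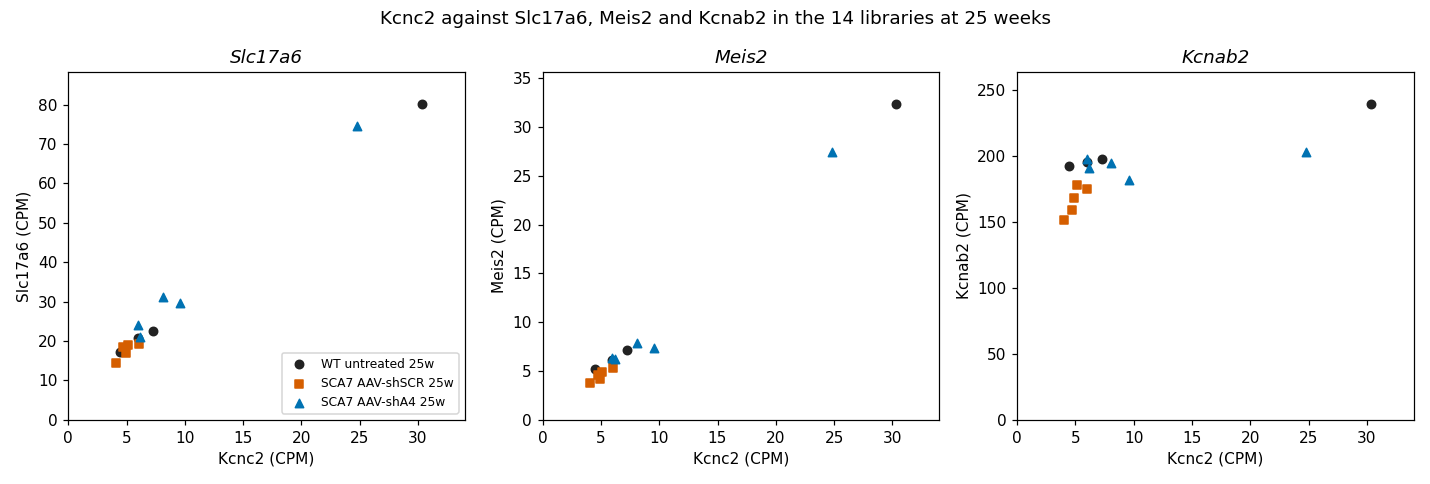
Kcnc2 (x axis, CPM) against Slc17a6, Meis2 and Kcnab2 (y axes, CPM) in the 14 libraries of 25 weeks, 1 point per mouse, by group. WT mouse 1 and AAV-shA4-treated mouse 1 stand apart at 30.3 and 24.8 CPM of Kcnc2 for Slc17a6 and Meis2. For Kcnab2 the WT mouse stands apart at 239 CPM. The AAV-shA4-treated mouse, at 202 CPM of Kcnab2, lies just above the other 12 libraries, which reach 198 CPM.

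Correlations between the 8 genes were taken over the same 14 libraries. They are across mice of 3 groups whose means differ, and describe the libraries only. Pearson r of log2(CPM + 0.1) was 0.958 for Kcna6 with Kcnab1, 0.939 for Kcnab1 with Kcnc1 and 0.919 for Kcna6 with Kcnc4, the 3 highest among these genes. For Kcnab2, r was highest with Kcnc2 at 0.750, and was 0.740 with Kcnc4, 0.636 with Kcna6, 0.599 with Kcnab1 and 0.336 with Kcnc1. For Kcna1, r ran from -0.17 with Kcnc2 to 0.51 with Kcna2, and for Kcnc2 with the genes other than Kcnab2 from -0.17 to 0.37. The genes outside the 8 with the highest r were Igfbp5 (0.989) and Ppp1r16b (0.988) for Kcna6, and Grid2ip (0.980) and Atp2b2 (0.978) for Kcnab1. For Kcnc1 they were the ankyrin gene Ank1 (0.987) and Mmp17 (0.966), and for Kcnc4 the septin gene Sept5 (0.983) and 1500009C09Rik (0.973). For Kcnab2 they were Rgs6 (0.973) and Iqsec3 (0.956), for Kcna2 Notum (0.909) and Ccdc3 (0.831), and for Kcna1 Caln1 (0.813) and Hint3 (0.806). Grid2ip encodes a scaffold of the PC synapse and Atp2b2 a plasma membrane calcium pump abundant in PCs.

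Among other genes of these families, Kcna3, Kcna4, Kcna5 and Kcnab3 had adjusted p from 0.562 to 0.994 with AAV-shSCR, at mean levels in WT mice of 4.53, 3.12, 0.685 and 48.9 CPM. Kcna7 held at most 1 count and Kcna10 at most 13 counts in a library, and neither was tested.

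Among proteins that anchor or accompany Kv1 channels at axons, 5 of 13 genes fell and none rose with AAV-shSCR, with a median log2 fold change of -0.07. They were Adam23 with a log2 fold change of -0.26 (adjusted p = 3.99e-05), Lgi2 with -0.37, Lgi4 with -0.40, Dlg2 with -0.19 and Dlg4 with -0.12. ADAM23 is a receptor of the secreted LGI proteins, and Dlg2 and Dlg4 encode the membrane scaffolds PSD-93 and PSD-95. Of 22 tested genes of other Kv families, 8 fell and 1 rose, with a median of -0.28. Kcng4, a modifier of Kv2 channels, stood at -0.50 on the log2 scale (adjusted p = 2.46e-06) and Kcnh3, an EAG-family gene, at -2.37 (adjusted p = 4.98e-05). Kcnb2, a Kv2 gene, was the 1 that rose, by 1.02 (adjusted p = 0.000229). In WT mouse 1, 18 of the 25 listed genes of other Kv families lay above the other 12 libraries described above, Kcnh3 among them and Kcng4 not. In AAV-shA4-treated mouse 1, 9 of the 25 did, without Kcnh3. Of the 13 Kv1 partners, 4 did so in WT mouse 1, Lgi2 and Adam23 among them. The part of these 2 libraries in the falls was not tested.

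Of 12 genes of the node and axon initial segment, 4 fell and 1 rose, and the median of the list was -0.07. Among them Nrcam and Nfasc fell, with log2 fold changes of -0.15 and -0.10, and Cntn1 rose by 0.09. These 3 genes encode adhesion molecules. Dlg2, Dlg4, Nfasc, Cntn1 and Kcnb2 are named here after their values were seen. With AAV-shA4 against WT mice, 5 of 13 partners, 6 of 22 other Kv genes and 5 of 12 node genes fell.

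Markers of cell types moved in the same comparison. Of 18 PC markers, 16 fell with AAV-shSCR and 16 with AAV-shA4, with medians of -0.46 and -0.43, and none was at 0 counts in all libraries. Their summed level was 8391 to 9314 CPM after AAV-shSCR and 8461 to 9803 CPM after AAV-shA4, against 11849 to 13376 CPM in WT mice. Oligodendrocyte markers fell for 8 of 14 genes with AAV-shSCR and 7 of 14 with AAV-shA4, and their summed levels of 4348 to 5217 and 4826 to 5478 CPM also lay below the 5915 to 6994 CPM of WT mice. Interneuron and Golgi cell markers fell for 8 of 16 genes, granule cell markers for 4 of 14 with 1 that rose, Bergmann glia and astrocyte markers for 4 of 12, and nuclei and brainstem markers for 2 of 9 tested, all with AAV-shSCR. Of 12 microglia and 9 choroid plexus and ependyma markers none was called, and of 10 blood and vessel markers 3 fell and 2 rose. In bulk cerebellum, fewer cells of a type and less RNA per cell cannot be told apart, and the part of these markers in the channel genes was not tested.

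The safety comparison asked whether AAV-shA4 alone alters cerebellar genes in WT mice. At 9 weeks 0 of 8 channel genes were called by edgeR when WT mice with and without the vector were compared, beside 0.0679% of 14733 genes. Without adjustment, Kcna2 and Kcnc1 had a p under 0.05, as did 11.1% of all genes, and DESeq2 called 1 member, Kcna2, and 130 of 14733 genes. Kcna2 measured 473, 478 and 482 CPM after AAV-shA4 against 570, 553 and 527 CPM in untreated mice. It was the 1 member that lay lower without overlap, as 8.81% of all genes did. The difference was -0.20 on the log2 scale (SE 0.05, 95% interval -0.31 to -0.10), with an adjusted p of 0.186 by edgeR and 0.0118 by DESeq2. The ratio of Kcna2 to Kcna1 counts was 3.70 ± 0.0908 (SD, n = 3) after AAV-shA4 and 4.45 ± 0.214 (SD, n = 3) in untreated mice, without overlap. The 2 groups also differed in depth, whose part in this was not tested.

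Kcnc1 measured 743, 781 and 830 CPM after AAV-shA4 against 899, 905 and 804 CPM in untreated mice, and the groups overlapped. The difference was -0.15 (SE 0.06, 95% interval -0.28 to -0.01, adjusted p = 0.402). Kcnc1 has the longest CAG run of the members, 5 CAG in a row at chr7:46429184-46429198 (GRCm38, plus strand), in the 3′ UTR of its longest annotated transcript, where the other 7 have 1 or 2. The part of this run in the level of Kcnc1 was not tested. Kcnc2 measured 9.30, 6.89 and 10.4 CPM after AAV-shA4 and 6.45, 11.8 and 5.27 CPM in untreated mice, an overlap that left a difference of 0.18. The 6 genes other than Kcna2 and Kcnc1 differed by -0.03 to 0.18 on the log2 scale, with adjusted p from 0.647 to 0.922.

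**Figure D5:**
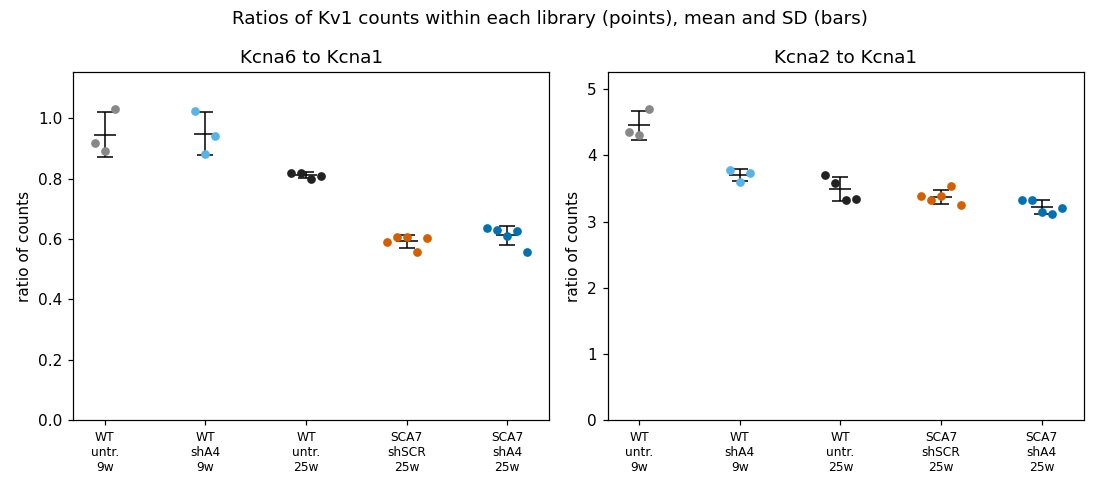
Ratios of counts within each library (y axes) for Kcna6 to Kcna1 and Kcna2 to Kcna1, grouped by condition (x axis), with points for mice and bars for the mean and SD. The Kcna6 ratio is 0.812 in WT mice of 25 weeks and 0.593 and 0.612 in the SCA7 groups, and the Kcna2 ratio is 4.45 in untreated and 3.70 in AAV-shA4-treated WT mice of 9 weeks.

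Untreated WT mice were present at both time points. The mice of 9 and 25 weeks belonged to separate experiments, so time and experiment cannot be told apart. Kcna1 rose by 0.29 on the log2 scale from 9 to 25 weeks (SE 0.04, adjusted p = 9.96e-05), from 131, 128 and 112 CPM to 151, 151, 155 and 148 CPM, without overlap. It was the 1 member called, beside 12.2% of 15095 genes called higher. Kcna6 and Kcnab1 also lay higher at 25 weeks without overlap, as 16.4% of all genes did, with differences of 0.07 (adjusted p = 0.149) and 0.08 (adjusted p = 0.0917). The ratio of Kcna2 to Kcna1 counts was 3.49 ± 0.186 (SD, n = 4) at 25 weeks against 4.45 ± 0.214 (SD, n = 3) at 9 weeks. Kcnc4 differed by 0.14 (SE 0.06, adjusted p = 0.0736), Kcna2 by -0.06, Kcnab2 by -0.04 and Kcnc1 by 0.01. Kcnc2 differed by 0.64 (adjusted p = 0.417), and by -0.41 without the 2 libraries (adjusted p = 0.256). Of the genes outside the 8, Kcna3 rose by 0.74 (adjusted p = 0.000451) and Atxn7 rose by 0.28 (adjusted p = 0.00149).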

How the data were processed

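Cerebellar RNA of 20 mice was sequenced by the authors as stranded poly(A) libraries with single reads. They trimmed reads with cutadapt 1.10, removed ribosomal reads with Bowtie2 2.2.8, mapped to mm10 with STAR 2.5.3a and counted with HTSeq 0.6.1p1, as the processing notes list. The deposited values are raw counts per gene for 55401 genes, without normalization. Depth was 31465600 to 54570500 counts per library.

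GENCODE M21 gave symbols, types and transcript lengths for 55141 genes. The 21897 protein-coding genes entered edgeR 4.0.16 under R 4.3.3 (TMM, filterByExpr with minimum count 10 and total 15, quasi-likelihood test), the Benjamini-Hochberg method over all genes tested, and DESeq2 1.42.0 as an alternative. The 6 libraries of 9 weeks, the 14 of 25 weeks, and all 20 for the time comparison were fitted separately, and the procedure was tested on simulated data. A gene was called at an adjusted p under 0.05. Replicates are separate mice, taken from the labels. Conditions and replicate numbers came from the sample titles, and the labels do not say from when their weeks are counted. The paper counts weeks after injection, and for the late mice gives another number than the labels. CPM for levels used TMM over all 20 libraries. Correlations used log2(CPM + 0.1).

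Named genes were the 8 members, Atxn7, every other Kv1, Kv3 and Kv beta gene, the 3 genes of smallest adjusted p in each Kv-related list with AAV-shSCR, and the 2 genes most like each member. Some genes that this rule names are not reported here. The members and lists were chosen with earlier results of these data known. Alternatives were other size factors, filters, gene sets, library sets, robust dispersion, a fold limit, a replicate block and leaving out each mouse. No proteins are shown, and the study's protein and behavioural data were not analysed here.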

Additional observations from a re-analysis of the deposited data

Results flagged for a closer look

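In groups of 4 or 5 mice, 24 combinations of gene and group were searched for 1 mouse far from the others, and 4 stood out by Dixon's criterion, where chance gives about 1 in 20. Kcnc2 measured 30.3 CPM in WT mouse 1 of 25 weeks, with the next WT mouse at 7.26 CPM, and 24.8 CPM in AAV-shA4-treated SCA7 mouse 1, with the next at 9.59 CPM. Kcnab2 measured 239 CPM in the same WT mouse, with the next at 197 CPM. Kcna6 measured 120 CPM in WT mouse 4, where the other 3 WT mice lay within 123 to 124 CPM.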

How the results depend on the processing

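Replicate numbers were not taken to pair the mice. Same-numbered mice correlated in their deviations from the group means by -0.0816 to 0.0912 over 3 pairs at 9 weeks. At 25 weeks the range was -0.226 to 0.491 over 13 pairs. The highest value was between WT mouse 1 and AAV-shA4-treated SCA7 mouse 1. Mice of different numbers were not compared, so these values cannot decide whether the numbers pair mice. With a replicate block the members called were 0 for AAV-shA4 against untreated WT mice at 9 weeks, 5 for AAV-shSCR and 4 for AAV-shA4 against WT at 25 weeks, 0 between the SCA7 groups and 1 between the time points. The call lost was Kcna2 (adjusted p = 0.0739), and Kcnc2 with AAV-shA4 turned to 0.0670.

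Of 664 alternative fits of a member's fold change, 635 kept direction and side of the threshold, 8 lost a call, 3 gained one and 18 turned sign, all of the last among differences that were not called. DESeq2 called 1 member at 9 weeks, among 130 genes in all. A fold change above 1.3 left 2 members called with AAV-shSCR, 1 with AAV-shA4 and 0 between the time points. All 5 calls with AAV-shSCR held when any 1 mouse was left out. Those with AAV-shA4 were 4 to 5, where Kcna2 lost its call without SCA7 mouse 1, 3 or 4 or WT mouse 1 or 2, and also when only the 2 groups were fitted (adjusted p = 0.0504). Between the time points 1 to 2 members were called, with Kcnc4 at 0.19 without WT mouse 1 of 9 weeks (adjusted p = 0.0359) and 0.18 without WT mouse 3 of 25 weeks (adjusted p = 0.0392).

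Leaving out 1 mouse at a time moved the log2 differences at 9 weeks between -0.00496 and 0.0994 for Kcna1, -0.00624 and 0.0834 for Kcnab1, -0.0641 and 0.0180 for Kcnab2, -0.0437 and 0.597 for Kcnc2 and -0.0445 and 0.0326 for Kcnc4. Between the SCA7 groups Kcna1 ran from -0.0112 to 0.0279. Between the time points Kcnc1 ran from -0.0440 to 0.0433 and Kcnc2 from -0.41 to 1.05. Kcnc2 ran from -0.70 to 0.90 with AAV-shA4 and from -1.55 to -0.24 with AAV-shSCR against WT, where WT mouse 1 decides the value. Without the 2 libraries highest in Kcnc2, that gene was at 0.34 with AAV-shA4 and -0.41 between the time points. The genes called at 9 weeks among all tested were 10, and 21 to 130 under 6 alternatives and 1 to 73 when 1 mouse was left out. With the longest transcript as length, the level per kilobase moved by more than its SD for 6 members.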
